A study of Mus musculus with 8 samples.

Results

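The vascular endothelial growth factor (VEGF) system was followed through 10 genes: the ligands Vegfa, Vegfb, Vegfc, Vegfd and Pgf, the receptors Flt1, Kdr and Flt4, and the co-receptors Nrp1 and Nrp2. The genes were chosen by name from what the family is known to contain, and each was measured by 1 probe set, so that they took 10 of 34760 probe sets and 10 of the 19935 gene symbols of the array. Expression was measured in total mammary cell suspensions, not sorted by FACS, of parous and age-matched virgin FVB/NHanHsd mice, with 4 arrays in each group. Each array held RNA from the number 4 glands of 5 pooled mice. Parous mice were mated at 42 days of age, carried a normal pregnancy and lactated for 21 days. The involution that followed lasted 28 days in the sample labels and 40 days in the methods. The labels name no transgene or drug in either group. Lymph nodes had been removed, adipocytes spun off, red blood cells lysed and fibroblasts reduced by attachment. The estrous stage of the mice behind each array was not given in the sources used here.

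VEGF ligands are secreted proteins that bind receptor tyrosine kinases on endothelial cells. Vegfa signals mainly through Kdr to drive the growth and permeability of blood vessels, while Flt1 binds Vegfa, Vegfb and Pgf tightly and can act as a decoy for Vegfa. Vegfc and Vegfd are the ligands of Flt4, the receptor of lymphatic growth, and the neuropilins Nrp1 and Nrp2 strengthen the binding of several ligands. In the mammary gland the capillary bed expands around the alveoli in pregnancy and regresses after weaning.

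No member of the VEGF system passed, between parous and virgin arrays, the criteria of a fold change over 1.5 with an adjusted p under 0.05 and a mean log2 value over 2. Vegfd and Vegfa were the members with the clearest separation. Vegfd was 1.87-fold and Vegfa 1.18-fold higher in parous suspensions, with every parous array above every virgin array for both genes. The same held for 3.54% of all probe sets, and 7.6% had no overlap in either direction. The 3 receptors and both co-receptors overlapped widely between the groups. They varied together from array to array along with markers of blood endothelium and of some other cell types.

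The labels call the cells mammary epithelial, but most markers of blood vessels and several other cell types were above every array's median. All 20 blood endothelial markers and all 11 measured luminal epithelial markers lay above the median of every array. So did all 15 fibroblast, 12 macrophage and 10 basal and myoepithelial markers, but only 4 of 9 adipocyte markers. Of the pericyte and smooth muscle markers 9 of 10 did, and of the lymphatic markers 5 of 7. Of the proliferation genes 12 of 19 did, and of the red blood cell genes 0 of 2. The median is over all 34760 probe sets, of which 11799 name no gene. The share of all probe sets above it on every array was not counted, so the counts alone do not say how unusual such values are. Pecam1, an adhesion molecule of endothelial cells, had a log2 value of 11.76 ± 0.09 in parous and 11.56 ± 0.37 in virgin arrays (mean ± SD, n = 4 each), and Krt8, a keratin of luminal cells, had 13.11 ± 0.05 and 13.28 ± 0.08. Virgin replicates 2 and 4 stood apart, with proliferation gene scores of 1.10 and 1.59 against -0.82 to -0.19 on the other 6 arrays. A score is the mean of a list's log2 values once the 8-array mean of each gene was subtracted. Over the 19 measured proliferation genes the median difference between parous and virgin arrays was -1.29. At an unadjusted limma p under 0.05, 15 were lower, beside 6.14% of all probe sets. Without these 2 arrays 7 were lower and the median was -0.43, and the share of all probe sets was not counted for that setting. The 3 with the smallest p were Ccna2 (-1.77), Kif11 (-1.63) and Tpx2 (-1.37), none of which passed. Without virgin replicates 2 and 4 they were at -0.70, -0.66 and -0.47. Values without the 2 arrays are also given for most members and for some list genes. Other list genes, given for all 8 arrays only, moved as well.

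The sequences just upstream of 3 members are shown as examples. As described next, Kdr and Flt1 varied over the arrays with blood endothelial markers, and Vegfd did so much less. Each sequence is the 250 bases before the transcription start in RefSeq (build GRCm38.p6), written 5′ to 3′ on the strand of the gene. Kdr is on chr5:75978456-75978705 (minus strand), Flt1 on chr5:147726012-147726261 (minus strand) and Vegfd on chrX:164373272-164373521 (plus strand). Capitals mark matches on either strand to a GC box (GGGCGG), an ETS core (GGAAG), a hypoxia response core (ACGTG), an AP-1 site (TGANTCA), the cyclic AMP element core TGACG, or a TATA box with the letters TATAAA. Matches that overlap run together, as do the TGACG cores of Flt1 on both strands.
Kdr: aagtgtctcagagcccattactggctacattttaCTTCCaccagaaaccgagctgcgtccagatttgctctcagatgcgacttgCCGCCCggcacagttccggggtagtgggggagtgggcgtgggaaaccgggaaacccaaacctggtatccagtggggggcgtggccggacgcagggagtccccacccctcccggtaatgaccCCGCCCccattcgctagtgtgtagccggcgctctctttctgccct
Flt1: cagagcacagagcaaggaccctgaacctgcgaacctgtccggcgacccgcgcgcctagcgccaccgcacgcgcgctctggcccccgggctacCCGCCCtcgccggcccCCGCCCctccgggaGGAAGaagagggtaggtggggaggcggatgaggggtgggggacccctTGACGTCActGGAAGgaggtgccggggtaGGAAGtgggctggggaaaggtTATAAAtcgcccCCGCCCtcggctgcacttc
Vegfd: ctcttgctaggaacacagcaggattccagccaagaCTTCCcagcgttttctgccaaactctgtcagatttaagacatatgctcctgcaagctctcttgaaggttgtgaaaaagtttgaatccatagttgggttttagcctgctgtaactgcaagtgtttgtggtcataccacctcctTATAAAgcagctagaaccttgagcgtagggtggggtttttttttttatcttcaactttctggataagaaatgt
All 10 members had such a window, and Vegfa and Pgf had 2 each, which made 12 windows. The bases G and C made up 70.4% of the window of Flt1 and 61.6% of that of Kdr, but only 42.4% of that of Vegfd, against a median of 52.4% over all 32851 windows. A GC box was found in 10 of the 12 member windows and in 32.7% of all windows, and an ETS core in 7 of the 12 and in 64.1% of all. GC boxes are bound by Sp1-type factors, and ETS factors act in endothelial cells among many others. The window of Vegfd held no GC box and only 2 CpG dinucleotides, against 23 in that of Flt1 and 16 in that of Kdr. Every other member, with Vegfa, Vegfb and Pgf among them, had a GC box in a window. A TATA box lay at bases -31 to -26 of Flt1 and -73 to -68 of Vegfd, counted back from the transcription start, and in 12.4% of all windows. The hypoxia response core was in 1 member window and in 16.6% of all windows. That window was 1 of the 2 of Vegfa (chr17:46025164-46025413, minus strand). It lies downstream of the other Vegfa window (chr17:46032378-46032627), which held no such core. The AP-1 site was in none of the 12 and in 6.75% of all. The TGACG core was in 1 window of Flt1 and 1 of Vegfa, and in 17.8% of all windows. In Vegfa it was in the same downstream window and overlapped the hypoxia response core, at bases -209 to -205 against -211 to -207. These are matches of letters and not measured binding, and any bearing of the sequences on the patterns over the arrays was not tested.

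Among the ligands, Vegfd, first described as a c-Fos-induced growth factor and a ligand of Flt4, differed most between the groups. Its log2 values were 7.56, 7.86, 7.90 and 8.44 in parous replicates 1 to 4 and 6.95, 6.74, 7.51 and 6.95 in virgin replicates 1 to 4. The groups did not overlap, but the highest virgin array, replicate 3, lay only 0.048 below the lowest parous array, replicate 1. The means were 7.94 ± 0.37 and 7.04 ± 0.33 (SD, n = 4 each), a difference of 0.90 on the log2 scale with an SE of 0.22 and a 95% confidence interval of 0.41 to 1.40. This was 1.87-fold, with an adjusted p of 0.16 by limma over all probe sets, and did not pass. The exact 2-sided permutation test over the 70 ways of splitting the arrays gave p = 0.029, the smallest that 4 arrays against 4 allow. With 1 array left out at a time the difference was 0.74 to 1.06 (adjusted p 0.084 to 0.43). Without virgin replicates 2 and 4 it was 0.71 (adjusted p = 0.59). Both tests took the pools of mice as units, and neither took a possible pairing of pools by experiment into account.

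Vegfa, the main ligand of Kdr, showed a smaller but very even difference. Its log2 values were 10.33, 10.33, 10.30 and 10.36 in parous replicates 1 to 4 and 10.16, 10.03, 10.16 and 10.03 in virgin replicates 1 to 4. The parous arrays lay within a narrow band, and the nearest virgin array was 0.13 below it. The means were 10.33 ± 0.03 and 10.10 ± 0.07 (SD, n = 4 each). The difference of 0.23 had an SE of 0.067 and a 95% confidence interval of 0.080 to 0.39, or 1.18-fold, and did not pass (limma adjusted p = 0.24, exact permutation p = 0.029). It stayed between 0.21 and 0.26 with any 1 array left out and was 0.17 without virgin replicates 2 and 4.

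The other 3 ligands overlapped between the groups. Vegfb, a ligand of Flt1 linked to fatty acid uptake in heart and muscle, had log2 values of 9.01, 9.06, 9.25 and 9.12 in parous and 8.94, 9.15, 8.98 and 9.22 in virgin replicates 1 to 4. Its difference was 0.04 (95% confidence interval -0.17 to 0.25, limma adjusted p = 0.93), and it fell just below 0 when parous replicate 3 or virgin replicate 1 was left out. Of all members Vegfb spread least over the 8 arrays, with an SD of 0.11. Pgf, placental growth factor, had 8.74, 9.24, 8.81 and 8.56 in parous and 8.60, 8.79, 8.80 and 8.53 in virgin replicates 1 to 4. Only parous replicate 2 stood out, and the difference was 0.16 (95% confidence interval -0.18 to 0.49, limma adjusted p = 0.75). It was 0.023 with that array left out.

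Vegfc, the first known lymphatic growth factor, behaved unlike Vegfd, with which it shares Flt4. Its log2 values were 7.90, 7.97, 8.16 and 7.81 in parous and 8.06, 7.69, 8.05 and 7.38 in virgin replicates 1 to 4. Virgin replicates 1 and 3 lay among the parous arrays and virgin replicates 2 and 4 below them. The difference was 0.17 (95% confidence interval -0.20 to 0.54, limma adjusted p = 0.76), and -0.09 without virgin replicates 2 and 4.

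**Figure D1:**
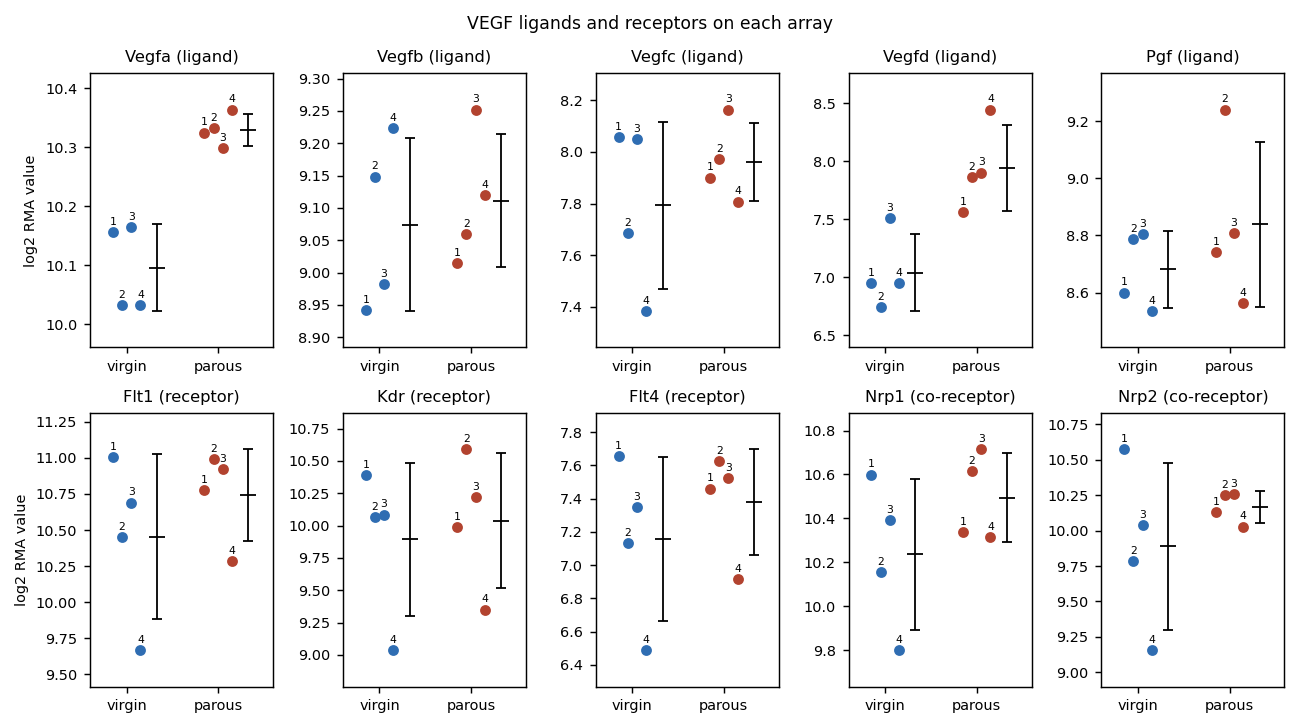
Log2 RMA value (vertical axis, a separate scale in each panel) of the 10 genes on each array, with numbered points for replicates and bars for the group mean ± SD (n = 4). Vegfa and Vegfd have every parous array above every virgin array, and virgin replicate 4 is the lowest array for all 5 receptors and co-receptors.

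The 3 receptors shared 1 pattern over the arrays. Flt1 had log2 values of 10.78, 10.99, 10.92 and 10.29 in parous and 11.00, 10.45, 10.69 and 9.67 in virgin replicates 1 to 4. Its highest and its lowest array were both virgin, replicates 1 and 4, and the difference between the groups was 0.29 (SE 0.28, 95% confidence interval -0.35 to 0.93, limma adjusted p = 0.76). Kdr, the main signalling receptor of Vegfa, had 9.99, 10.59, 10.22 and 9.35 in parous and 10.39, 10.07, 10.09 and 9.03 in virgin replicates 1 to 4. Replicate 4 was the lowest array of each group, and the difference was 0.14 (SE 0.34, 95% confidence interval -0.62 to 0.91, limma adjusted p = 0.92). Its sign was not stable: it was -0.14 without virgin replicate 4 and -0.04 without parous replicate 2. Flt4, which in adults is mainly found on lymphatic endothelium, had 7.46, 7.63, 7.52 and 6.92 in parous and 7.65, 7.13, 7.35 and 6.49 in virgin replicates 1 to 4. The groups overlapped over most of their range, with a difference of 0.23 (SE 0.25, limma adjusted p = 0.81). In such bulk suspensions fewer cells of a type and less RNA per cell cannot be told apart.

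The neuropilins, which also bind class 3 semaphorins, followed the receptors. Nrp1, found on endothelium of arteries and on other cells, had log2 values of 10.34, 10.62, 10.72 and 10.31 in parous and 10.60, 10.16, 10.39 and 9.80 in virgin replicates 1 to 4. All 4 parous arrays were above the virgin mean but not above every virgin array, and the difference was 0.26 (SE 0.18, 95% confidence interval -0.15 to 0.66, limma adjusted p = 0.65). Nrp2, found on endothelium of veins and lymphatics, had 10.13, 10.25, 10.26 and 10.03 in parous and 10.58, 9.78, 10.04 and 9.15 in virgin replicates 1 to 4. The parous arrays were close together and lay inside the virgin range, and the difference was 0.28 (SE 0.26, 95% confidence interval -0.31 to 0.87, limma adjusted p = 0.75). Of the arrays left out singly, virgin replicate 4 lowered the values of Flt1, Flt4, Nrp1 and Nrp2 most. Without it the difference was 0.030 for Flt1, 0.0016 for Flt4, 0.11 for Nrp1 and 0.034 for Nrp2.

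Taking the members as a group, 0 of 10 probe sets passed the criteria, where 0.397% of all probe sets did (0.239% higher and 0.158% lower in parous arrays), and the alternative tests also passed 0 members. At an unadjusted limma p under 0.05, 2 of the 10, Vegfd and Vegfa, were higher, against 5.26% of all probe sets, and 0 were lower, against 6.14%. The same 2 had no overlap between the groups with parous arrays above, as 3.54% of all probe sets did, and 0 had none with parous arrays below, as 4.06% did (7.6% in either direction). All 10 differences were above 0, as were 50.4% of all, but Kdr, Flt1, Flt4, Nrp1, Nrp2, Vegfb and Vegfc went below 0 under at least 1 other setting. The median difference was 0.23 over the members, 0.17 over the ligands and 0.26 over the receptors and co-receptors, beside 0.0016 over all probe sets. It was 0.060 without virgin replicate 4 and -0.046 without virgin replicates 2 and 4. The genes share arrays and are not independent, and the number of arrays limits the precision of each value.

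**Figure D2:**
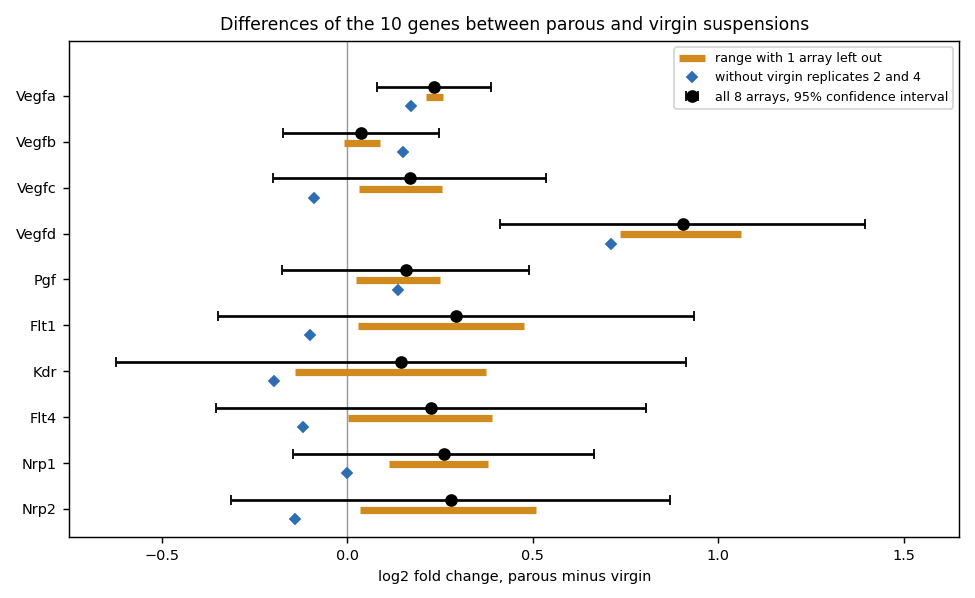
Difference between parous and virgin arrays (horizontal axis, log2 fold change) for each gene: black points with 95% confidence intervals for all 8 arrays, orange bars for the range with 1 array left out, and blue diamonds without virgin replicates 2 and 4. The intervals of Vegfa and Vegfd alone lie above 0, and 6 of the diamonds, those of Vegfc, the receptors and the co-receptors, lie at or below it.

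The common pattern of the receptors was also that of the blood endothelial markers. After centring each gene, the mean of the 5 receptors and co-receptors was 0.093, 0.37, 0.28 and -0.27 in parous and 0.40, -0.13, 0.066 and -0.82 in virgin replicates 1 to 4. The blood endothelial score was 0.010, 0.31, 0.26 and -0.16 in parous and 0.30, -0.11, -0.0030 and -0.61 in virgin replicates 1 to 4. Both were lowest in replicate 4 of each group and high in virgin replicate 1 and parous replicates 2 and 3. The pericyte and smooth muscle score and the adipocyte score were lowest on the same arrays. They were -0.079 and -0.080 in parous replicate 4 and -0.61 and -0.34 in virgin replicate 4. Neither of these 2 scores was subtracted from the members or used as a covariate. The 20 markers included 0 that passed and 1, Cd34, higher at an unadjusted limma p under 0.05 (0.37, with Tek at 0.42 and Erg at 0.35 next by p). Their median difference was 0.21, and -0.056 without virgin replicates 2 and 4.

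Subtracting the endothelial score from each array took away most of the spread of the receptors. The SD over the 8 arrays went from 0.46 to 0.17 for Flt1, from 0.40 to 0.13 for Flt4 and from 0.30 to 0.077 for Nrp1. It went from 0.52 to 0.26 for Kdr, from 0.42 to 0.17 for Nrp2 and, alone among the ligands, from 0.25 to 0.13 for Vegfc by a similar share. Vegfd, in contrast, kept an SD of 0.58. The SD of Vegfa went up from 0.14 to 0.26, but this does not set Vegfa apart. The score was subtracted in full, so a gene of little spread can gain spread even where it runs with the score. Pearson's r of Vegfa over the 8 arrays was 0.51 with the endothelial score and 0.76 with the fibroblast score described next. For Vegfd these were 0.26 and 0.92. With the score as a covariate in the fit, an alternative chosen after seeing the data, the differences between parous and virgin arrays were -0.015 for Flt1, -0.049 for Flt4, 0.073 for Nrp1, 0.0086 for Nrp2 and 0.014 for Vegfc. Kdr came to -0.22 (95% confidence interval -0.53 to 0.099, limma adjusted p = 0.61). Under the same fit Vegfa was at 0.22 and Vegfd at 0.93 (limma adjusted p = 0.23). The part of the endothelial cells in the receptor values was not tested.

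The values of Vegfd ran with fibroblast markers. The score of 15 fibroblast markers was -0.046, 0.16, 0.19 and 0.53 in parous and -0.24, -0.58, -0.0061 and -0.018 in virgin replicates 1 to 4. Parous replicate 4 was highest and virgin replicate 2 lowest, as for Vegfd. The lymphatic and macrophage scores were also highest in parous replicate 4, at 0.26 and 0.37. Both were lowest in virgin replicates 2 and 4, at -0.28 and -0.46 for the lymphatic score and -0.28 and -0.28 for the macrophage score. Neither was subtracted from the members or used as a covariate. Of the 15 markers 0 passed, and 12 had a difference above 0. At an unadjusted limma p under 0.05, 8 were higher in parous arrays and 1 was lower, beside 5.26% and 6.14% of all probe sets. The lower one was Postn at -0.34 (limma adjusted p = 0.31), with no overlap. Col1a1 at -0.21 and Col3a1 at -0.24 were also below 0. The 3 with the smallest p were Fbln1, a fibulin of the extracellular matrix, higher by 1.01, Dpt, dermatopontin, higher by 0.93, and Pi16, a marker of adventitial fibroblasts, higher by 0.93 (limma adjusted p 0.091 to 0.21). The median of the list was 0.31. Subtracting the score took the SD of Vegfd from 0.58 to 0.31. With the score as a covariate, also chosen after seeing the data, the difference of Vegfd was 0.41 (95% confidence interval -0.0069 to 0.83, limma adjusted p = 0.76) and that of Vegfa 0.19 (limma adjusted p = 0.76). The receptors went the other way under this fit, to 0.61 for Flt1, 0.62 for Kdr, 0.53 for Flt4, 0.32 for Nrp1 and 0.42 for Nrp2, and none passed (limma adjusted p 0.76 to 0.80). The part of fibroblasts in the value of Vegfd was not tested.

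**Figure D3:**
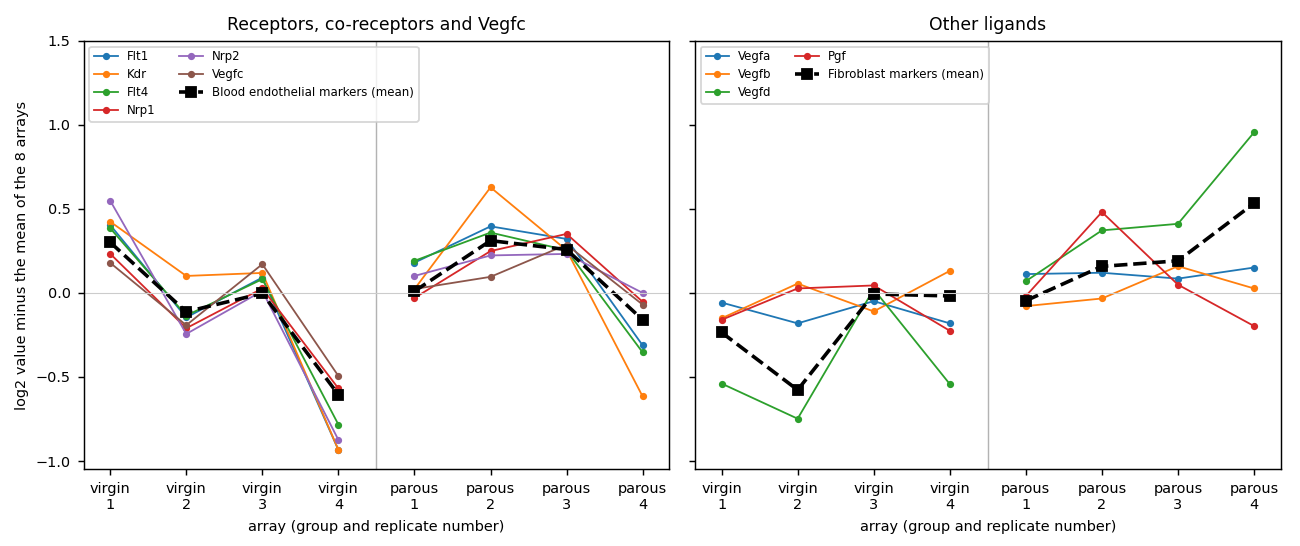
Log2 value minus the mean of the 8 arrays (vertical axis) for each gene on each array (horizontal axis), with the mean of the blood endothelial markers (left) and of the fibroblast markers (right) in black. Lines join arrays of 1 group only to guide the eye. On the left the genes follow the black line down to virgin replicate 4, at -0.61 for the markers, and on the right Vegfd is lowest in virgin replicate 2 and highest in parous replicate 4, as are the fibroblast markers.

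Other vascular and stromal markers differed by similar amounts. Among 7 measured lymphatic markers, 0 passed and the median was 0.26. Mmrn1 was higher by 0.92 and Sema3d by 0.88 at an unadjusted p under 0.05 (limma adjusted p 0.40 and 0.33), while Reln was at -0.74 (adjusted p = 0.48). These values rested on virgin replicates 2 and 4: without them Mmrn1 was at 0.20, Sema3d at 0.30 and Reln at -0.052, and the median was 0.012. Prox1, the transcription factor that defines lymphatic identity, was at 0.26 (adjusted p = 0.73), and -0.10 without them. Of the 10 pericyte and smooth muscle markers 0 passed, and 2 were higher at an unadjusted p under 0.05. These were Pdgfrb at 0.41 and Abcc9 at 0.57, with Des at 0.71 next by p. Without virgin replicates 2 and 4 they were at 0.24, 0.18 and 0.17. The median was 0.36, or 0.051 without those arrays. Medians were 0.22 over 12 macrophage and 0.20 over 9 adipocyte markers, with 2 higher and 0 lower at that level in each list, and 0.094 and 0.0041 without those arrays. Smallest in p were Cd14 (0.35), Cd68 (0.28) and Mrc1 (0.72) of the macrophage markers and Plin4 (0.48), Pnpla2 (0.21) and Plin1 (0.20) of the adipocyte markers. Without those arrays Cd14 was at 0.28, Cd68 at 0.22, Mrc1 at 0.16 and Plin4 at 0.21. Only 2 red blood cell genes were measured, Slc4a1 (0.20) and Alas2 (0.09). Luminal markers had a median of -0.17 with 0 passing, and 2 were higher while 6 were lower. Krt19 (-0.47, limma adjusted p = 0.044) missed only the fold criterion, and Foxa1 (-1.18, adjusted p = 0.12) and Elf5 (0.35, adjusted p = 0.21) came next, all 3 with no overlap. Basal and myoepithelial markers had a median of -0.26 with 1 passing, Krt17, which was 2.26-fold lower in parous arrays (limma adjusted p = 0.017, and 0.082 without virgin replicates 2 and 4). Krt17 also did not pass when any 1 parous array or virgin replicate 2 was left out. Across the 115 measured genes of all marker lists, 16.5% were higher and 22.6% lower by the unadjusted p, beside 5.26% and 6.14% of all probe sets.

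Over the 8 arrays, the genes whose values ran closest to those of each member were named as a description, by Pearson's r over arrays that share group, pool and cell makeup. The 3 closest to Flt1 were Dll4, a Notch ligand of tip cells and arteries, Icam2, an endothelial adhesion molecule, and Epas1, a hypoxia-inducible factor abundant in endothelium (r 0.988 to 0.993). Those of Flt4 were Gimap5, Icam2 and Notch4, an endothelial Notch receptor, those of Kdr were Zfp366, Adgrl4 and Pik3r6, and those of Vegfc were Clec14a, an endothelial lectin, Hdac7 and Sdr42e1. Nrp1 was closest to Tmem200b, Sptbn1 and Mecom, and Nrp2 to Ece1, which activates endothelin, Arsa and Tmem38b. Vegfd ran with Cped1, Tmeff2 and Mitf (r 0.986 to 0.994), and these were higher in parous arrays by 0.88, 0.91 and 0.76 (limma adjusted p 0.091 to 0.18). The gene nearest to Vegfa was Igkv5-43, an immunoglobulin light chain segment that passed the criteria at a difference of 2.85 (limma adjusted p = 0.014), followed by Eda and Gnptg. Vegfb was closest to Pla2g12a, Poldip2 and Igbp1b, and Pgf to Rfesd, Slc16a13 and Pnrc2. Between members, r was highest for Flt1 with Flt4 (0.995), whereas Flt4 had 0.893 with its ligand Vegfc and 0.142 with its ligand Vegfd.

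The other genes of the pathway were taken in 7 lists of 121 genes, of which 113 were measured. None passed the criteria by limma. At unadjusted p values under 0.05, 13 genes stood on the higher and 13 on the lower side, or 11.5% each, beside 5.26% and 6.14% of all probe sets (11.4% in either direction), and the median difference was 0.03. Without virgin replicates 2 and 4, 10 were higher and 8 lower, the median was -0.027, and 1 gene, Ccbe1, passed. The shares of all probe sets at that p were not counted for this setting. The lists share a few genes with each other and with the marker lists.

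Of the 6 genes that process Vegfc and Vegfd, which are made as precursors, Ccbe1 differed most, in the direction opposite to Vegfd. Ccbe1 is a secreted protein needed for the cleavage of Vegfc in lymphatic growth. Its log2 values were 6.79, 6.86, 6.88 and 6.95 in parous and 8.02, 7.83, 7.70 and 7.10 in virgin replicates 1 to 4. Every parous array was below every virgin array, and the difference was -0.79 (SE 0.18, 95% confidence interval -1.20 to -0.38), which did not pass (limma adjusted p = 0.15). Virgin replicate 4 was nearest to the parous arrays, and without it the difference was -0.98 and passed (limma adjusted p = 0.012). It was -0.99 without virgin replicates 2 and 4 and passed there as well (limma adjusted p = 0.035). Pcsk5, a proprotein convertase, was at 0.39 (limma adjusted p = 0.22), also with no overlap, and Ctsd, cathepsin D, at 0.18. Adamts3, the protease that works with Ccbe1, was at 0.05 and Furin at 0.03, and the list's median was 0.097. The value of Adamts3 is that of the brightest of its 16 probe sets, and the others are not given.

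The 12 class 3 semaphorins and plexins share the neuropilins with the VEGF ligands. Sema3c (0.29) and Sema3d (0.88) were higher and Plxna3 (-0.21) was lower at an unadjusted limma p under 0.05, with adjusted p of 0.32 to 0.43. The median of the list was 0.19, or 0.028 without virgin replicates 2 and 4. Of the 35 measured genes of receptor signal transduction, 3 were higher and 5 lower at an unadjusted limma p under 0.05. The higher ones were Pik3r1, a regulatory subunit of PI3 kinase, at 0.32, the adaptor Shc2 at 0.33 and Nos3, endothelial nitric oxide synthase, at 0.52 (0.22 without virgin replicates 2 and 4). The lower ones were the kinase Src at -0.50, the GTPases Nras at -0.45 and Rac1 at -0.17, the adaptor Nck2 at -0.43 and the sphingosine kinase Sphk1 at -0.32. Their limma adjusted p were 0.14 to 0.38 and the median of the list was -0.039.

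Genes known to be induced by VEGF in endothelial cells included 0 higher and 2 lower at that level among 11, with a median of -0.043. Egr3, an immediate early transcription factor, had log2 values of 9.22, 8.99, 9.21 and 8.92 in parous and 9.42, 9.72, 9.63 and 9.74 in virgin replicates 1 to 4. Every parous array was below every virgin array, and the difference was -0.54 (SE 0.11, limma adjusted p = 0.097). Apln, the ligand apelin, was at -0.48 (-0.084 without virgin replicates 2 and 4) and Nrarp, a Notch feedback regulator, at 0.47 (limma adjusted p 0.44 and 0.45).

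The oxygen-sensing genes that act upstream of Vegfa were also followed. Hif1a, the subunit stabilised in low oxygen, was at -0.04, and Epas1, which ran with Flt1 over the arrays, at 0.33 (limma adjusted p 0.91 and 0.73). Without virgin replicates 2 and 4, Hif1a was at -0.13 and Epas1 at -0.064. Of 10 such genes 0 were higher and 1 was lower by the unadjusted p, with a median of -0.061. That gene was Egln3, a prolyl hydroxylase that marks HIF proteins for breakdown and is itself a HIF target. Its log2 values were 10.20, 10.19, 9.78 and 9.76 in parous and 10.58, 10.75, 10.59 and 10.54 in virgin replicates 1 to 4. The groups did not overlap, at a difference of -0.63 (SE 0.12, limma adjusted p = 0.097). Vhl was at -0.23 and Arnt at 0.13. Among 19 further hypoxia targets, Bnip3, a mitophagy receptor, was higher by 0.57 and Car9, a carbonic anhydrase, was lower with a difference of -0.31 at an unadjusted p under 0.05 (limma adjusted p 0.29 and 0.40). The value of Bnip3 is that of the brighter of its 2 probe sets, and the other is not given. Ddit4 was at 0.30 and the glucose transporter Slc2a1 at 0.09, and the median of the list was 0.087.

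The last list held 23 measured ligands, receptors and inhibitors of other angiogenic systems, with 6 higher and 3 lower at an unadjusted limma p under 0.05. Its median was 0.14, or -0.027 without virgin replicates 2 and 4. Angpt1, the ligand that steadies vessels through the receptor Tek, had log2 values of 9.37, 9.33, 9.60 and 9.54 in parous and 8.98, 7.96, 9.06 and 6.70 in virgin replicates 1 to 4. Parous arrays were all above virgin arrays, and virgin replicate 4 was far below the rest. The difference was 1.28 (SE 0.47, limma adjusted p = 0.35), but 0.79 without virgin replicate 4 and 0.44 without virgin replicates 2 and 4 (limma adjusted p 0.33 and 0.31). The others higher were the inhibitor Thbs2 at 0.77, Pdgfra at 0.92, Pdgfd at 0.47, Pdgfrb at 0.41 and Fgf2 at 0.33 (limma adjusted p 0.15 to 0.42). Pdgfra is also among the fibroblast markers and Pdgfrb among the pericyte markers. The lower ones were Aplnr, the receptor of apelin, at -0.54, Apln at -0.48 and the inhibitor Thbs1 at -0.30 (limma adjusted p 0.40 to 0.44).

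**Figure D4:**
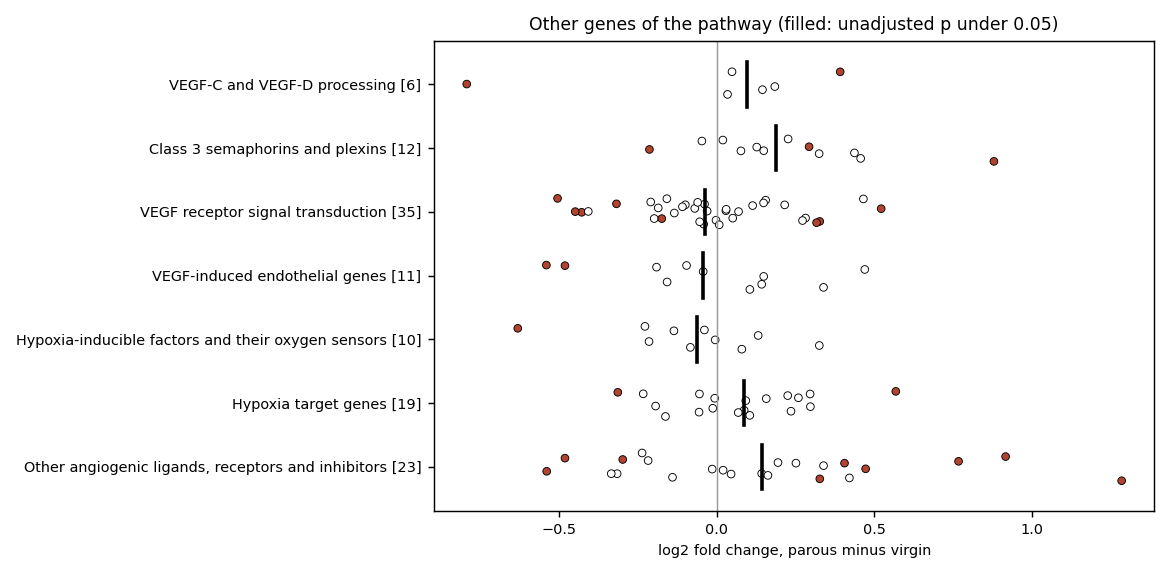
Difference between parous and virgin arrays (horizontal axis, log2 fold change) for each measured gene of the 7 pathway lists, with the number of genes in brackets. Filled points have an unadjusted p under 0.05, open points do not, and black bars mark the medians, which lie between -0.061 and 0.19. The points farthest to either side are Ccbe1 at -0.79 and Angpt1 at 1.28.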

How the data were processed

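Total RNA of 8 pools was amplified and hybridised to Affymetrix Mouse Gene 1.0 ST arrays. Values deposited by the authors are on the log2 scale, from rma() in affy (Bioconductor v2.14; affy's own version was not given in the sources used here): background was corrected, arrays were quantile normalized and probes were summarized to 1 value per probe set. Such summaries understate fold changes of dim probe sets, and array medians were 6.29 to 6.43. Of 34760 probe sets, 21640 named 1 gene, 1321 several and 11799 none. Current symbols came through the gene identifier for 21553, a sequence accession for 3, and 84 kept the annotation's symbol.

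Groups were taken from the labels. Differences are parous minus virgin, fitted with lmFit and eBayes of limma 3.58.1 in R 4.3.3, 2-sided, and p was adjusted by Benjamini-Hochberg across the whole array. A probe set passed at a linear fold change over 1.5, adjusted p under 0.05 and mean log2 value over 2. Procedures were tested on simulated data. A list gene with several probe sets was read from the one of highest mean. Genes named are all members, in each list those passing or otherwise the 3 of smallest p, the 3 closest to each member, and others chosen after their values were seen. Members and lists were chosen with earlier results of these data known. Alternatives were the replicate block, leaving out arrays, further normalization, moderation, weights, the methods' t-test, filters and, added after seeing the data, marker covariates. Levels of different probe sets were not compared with each other, only set against the median of each array.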

Additional observations from a re-analysis of the deposited data

How the results depend on the processing

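No member passed the criteria in any of the 20 other settings run. The number of all probe sets passing was 138, but 49 with the replicate block (43 of them among the 138), 11 with the methods' t-test, 11 with the fibroblast score as a covariate, and 42 to 179 with 1 array left out: 75, 56, 42 and 63 without parous replicates 1 to 4, and 95, 78, 179 and 125 without virgin replicates 1 to 4. The cause was not tested. With groups of equal size the replicate block cannot move the members' differences, and 0 passed. With it the adjusted p was 0.22 for Vegfd and 0.32 for Vegfa. A legend of the study describes separate experiments, each with mice of both groups, and neither labels nor methods tie replicate numbers to them. Same-numbered arrays deviated together with r of 0.115, 0.183, -0.0567 and 0.307, and 4 of 8 arrays correlated best with their own number, so the pairing is not settled. Neither the fit without a block nor the permutation test takes experiments into account.

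Members at an unadjusted p under 0.05 numbered 2, but 1 without virgin replicates 2 and 4, 0 with the fibroblast covariate, and 2 to 3 with 1 array left out. The members' median was -0.046 without virgin replicates 2 and 4, 0.060 to 0.34 with 1 array left out, 0.044 with the endothelial covariate and 0.37 with the fibroblast covariate. Without virgin replicates 2 and 4, single differences turned to -0.091 for Vegfc, -0.10 for Flt1, -0.20 for Kdr, -0.12 for Flt4, -0.00043 for Nrp1 and -0.14 for Nrp2. With the endothelial covariate they turned to -0.015 for Flt1, -0.22 for Kdr and -0.049 for Flt4. Leaving out 1 array gave -0.14 to 0.37 for Kdr and -0.0097 to 0.087 for Vegfb: Kdr was -0.14 without virgin replicate 4 and -0.041 without parous replicate 2, and Vegfb -0.0097 without parous replicate 3 and -0.0068 without virgin replicate 1. Vegfa, Vegfd and Pgf stayed above 0 in all 19 other settings run for them, at 0.17 to 0.26, 0.41 to 1.06 and 0.023 to 0.29. Some of these settings cannot move a difference: the replicate block, the changed moderation, the methods' t-test and the probe set filters. The signs under them were fixed in advance. Ccbe1 also passed with array weights (-0.90) and with the endothelial covariate (-0.945), at adjusted p of 0.029 and 0.039, and did not pass with the replicate block (adjusted p = 0.23). With 4 arrays a group, the 95% intervals of 8 of the 10 members spanned 0.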
